A study of Mus musculus with 32 samples.

Results

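A set of 10 genes of the lipid droplet and of its lipases was followed in COX10 KO and CTL mice: Plin2, Plin3, Plin4, Plin5, Pnpla2, Pnpla3, Lipe, Cidea, Cidec and Dgat2. They were taken by name, through the Ensembl identifiers of the count files, and all 10 were found among the 55401 genes counted in each library. COX10 KO mice carried a floxed Cox10 allele, a gene needed to assemble cytochrome c oxidase, together with Cre placed in the Myl1 locus, which is active in skeletal muscle fibres, so that liver and hypothalamus were not targeted by design. CTL mice are labelled only as controls, and the labels do not give their Cox10 or Cre alleles. All mice were C57BL/6 and 200 days old. RNA was sequenced from the 3′ end in calf muscle (6 COX10 KO and 6 CTL samples), liver (6 COX10 KO and 6 CTL samples) and hypothalamus (4 COX10 KO and 4 CTL samples). Each genotype had 3 female and 3 male samples in muscle and in liver, and the hypothalami were all from males. The labels do not say whether the tissues came from the same animals. On GRCm38 the genes include Pnpla2 (ENSMUSG00000025509.15) at chr7:141455198-141460743, Plin2 (ENSMUSG00000028494.12) at chr4:86648386-86670060, Plin5 (ENSMUSG00000011305.11) at chr17:56111601-56117596 and Cidec (ENSMUSG00000030278.11) at chr6:113424634-113435760. Plin4 and Plin3 lie on the same chromosome and strand as Plin5. Plin4, Pnpla3, Lipe and Cidea overlap a gene on the opposite strand, and since the strand setting of the counting is not given in the sources used here, reads of such pairs cannot be told apart.

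Fat is stored in cells as triacylglycerol inside droplets that are covered by a phospholipid monolayer and by proteins of the perilipin family, which control how lipases reach the core. Triacylglycerol is made by the acyltransferases DGAT1 and DGAT2 and broken down stepwise by adipose triglyceride lipase (ATGL, the product of Pnpla2), hormone-sensitive lipase (HSL, the product of Lipe) and monoacylglycerol lipase. In muscle and liver, droplets swell when fatty acid supply exceeds oxidation, and several droplet genes are targets of the fatty acid sensors of the PPAR family.

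Libraries held 1734571 to 11404800 counts in COX10 KO muscle and 434494 to 8936522 in CTL muscle, 674311 to 3197080 in COX10 KO liver and 1955599 to 16044634 in CTL liver, and 3526613 to 5684034 in COX10 KO hypothalamus and 4070847 to 22321322 in CTL hypothalamus. Levels are given as CPM, a gene's count scaled to a common library size with edgeR's trimmed mean of M values. The tissue markers matched the labels (5 skeletal muscle markers summed to at least 45146.9 CPM in every muscle library, and 5 hepatocyte markers to at least 39468.1 CPM in every liver library). The sex read from transcripts went against the label in 2 of 32 libraries, which were CTL livers. Cox10 measured 113 ± 16.2 CPM in COX10 KO muscle and 109.8 ± 42.3 CPM in CTL muscle (SD, n = 6 each). A read from the 3′ end outside a deleted exon checks nothing about the deletion. A pair of libraries stood apart, and values without them are given beside the results that moved most with them. COX10 KO liver 3, the shallowest liver library, correlated at r = 0.73 with the median of the other liver libraries (over 7075 genes), against 0.87 to 0.93 for the other 11. CTL muscle 2, the shallowest muscle library, correlated at r = 0.82 with the median of the others, and its 10 adipocyte markers summed to 5582 CPM, against 802 to 2212 CPM in COX10 KO muscle and 270 to 1133 CPM in the other CTL muscle libraries.

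The sequences just before the annotated start are shown for Pnpla2, which passed the test in muscle, and for Plin2, Plin5 and Cidec. These last genes were highest in the same few COX10 KO livers, a pattern that Plin4, not shown, shared. RefSeq promoters of GRCm38.p6 were found for 8 of the 10 genes, and the 250 bases before the start are given, from the earlier-listed start where a gene had several. Capitals mark short motifs found on either strand by their letters. The GC box, bound by Sp factors, was searched as GGGCGG, and the nuclear receptor core site as AGGTCA. The CCAAT box, bound by NF-Y, was searched by its own letters. The Pnpla2 stretch lies at chr7:141454938-141455187 (plus strand), that of Plin2 at chr4:86670060-86670309, that of Plin5 at chr17:56117549-56117798 and that of Cidec at chr6:113435761-113436010 (all minus strand).
Pnpla2: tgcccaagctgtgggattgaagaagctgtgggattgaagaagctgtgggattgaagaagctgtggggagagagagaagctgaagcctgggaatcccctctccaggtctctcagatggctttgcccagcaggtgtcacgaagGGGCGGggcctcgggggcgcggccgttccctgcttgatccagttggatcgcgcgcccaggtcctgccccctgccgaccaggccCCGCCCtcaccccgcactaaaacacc
Plin2: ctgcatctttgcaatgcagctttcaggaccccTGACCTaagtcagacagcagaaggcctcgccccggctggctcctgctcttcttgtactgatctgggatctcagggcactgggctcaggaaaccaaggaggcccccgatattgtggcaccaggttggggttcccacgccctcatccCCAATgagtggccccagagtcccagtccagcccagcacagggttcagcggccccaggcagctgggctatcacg
Plin5: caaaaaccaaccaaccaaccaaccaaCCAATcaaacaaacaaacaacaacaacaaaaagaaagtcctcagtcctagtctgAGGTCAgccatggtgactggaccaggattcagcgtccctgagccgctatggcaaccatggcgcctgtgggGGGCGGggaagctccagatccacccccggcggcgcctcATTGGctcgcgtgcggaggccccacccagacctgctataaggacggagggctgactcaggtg
Cidec: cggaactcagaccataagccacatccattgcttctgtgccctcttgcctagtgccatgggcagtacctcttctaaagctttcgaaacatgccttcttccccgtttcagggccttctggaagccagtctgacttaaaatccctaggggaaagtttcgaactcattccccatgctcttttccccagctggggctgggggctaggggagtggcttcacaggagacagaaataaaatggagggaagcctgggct
Pnpla2 held 2 GC boxes, which 32.7% of 32851 promoters of the same length also held at least once. Plin2 and Plin5 each held a core site, as did 14.0% of all promoters, and a CCAAT box occurred in both, as in 33.8% of all promoters. Plin4, whose sequence is not shown, held a CCAAT box but no core site and no GC box. Cidec held none of these, and none of the promoters found for the 10 genes held the direct repeat of that core site with 1 base between its copies, the usual PPAR element, which 0.0335% of all promoters held. These matches are letters only, and no binding was measured.

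In CTL mice the 10 genes differed widely between tissues. Plin2, which coats droplets in most cell types, averaged 318 ± 40.8 CPM in liver, 24.9 ± 22.6 CPM in muscle and 6.08 ± 1.40 CPM in hypothalamus (SD, n = 6, 6 and 4), and each step of that order passed edgeR's test (liver over hypothalamus a log2 difference of 6.60, SE 0.33, muscle minus liver -3.99, SE 0.42, muscle minus hypothalamus 1.93, SE 0.45). Plin4, a perilipin of fat and muscle, showed another order, with 179 ± 97.6 CPM in muscle, 2.94 ± 2.17 CPM in liver and 3.59 ± 1.00 CPM in hypothalamus, where liver and hypothalamus did not differ past the threshold (adjusted p = 0.202 from edgeR). Pnpla2 was highest in muscle (253 ± 60.6 CPM), then in liver (75.0 ± 25.03 CPM) and in hypothalamus (19.4 ± 3.73 CPM). Dgat2 was highest in liver (565 ± 201 CPM), then in muscle (73.0 ± 51.4 CPM) and hypothalamus (49.5 ± 22.3 CPM).

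Plin5, which tethers droplets to mitochondria in oxidative tissues, averaged 42.4 ± 18.4 CPM in CTL liver and 23.7 ± 18.9 CPM in CTL muscle, which did not differ past the threshold (adjusted p = 0.0747 from edgeR), and 0.826 ± 0.634 CPM in hypothalamus. Plin3 was likewise similar in muscle and liver (38.5 ± 9.44 and 44.5 ± 6.64 CPM, adjusted p = 0.202 from edgeR) and lower in hypothalamus (20.5 ± 2.87 CPM). Lipe averaged 51.3 ± 46.2 CPM in muscle, 15.4 ± 2.13 CPM in liver and 13.7 ± 2.22 CPM in hypothalamus, and Cidec 31.6 ± 54.6 CPM in muscle, 0.936 ± 0.683 CPM in liver and 0.0118 ± 0.0235 CPM in hypothalamus. Without CTL muscle 2 the muscle means of Lipe and Cidec were 33.1 ± 13.9 and 9.48 ± 8.23 CPM (n = 5), and both remained called against liver (log2 differences of 1.07 and 3.28, against 1.46 and 4.48 with it). Cidea was at 2.53 ± 3.80 CPM in muscle, 0.678 ± 0.446 CPM in liver and 4.16 ± 0.812 CPM in hypothalamus, and of these tissues only liver and hypothalamus differed past the threshold (log2 difference -1.60, adjusted p = 0.0402 from edgeR), with muscle against liver not tested. Pnpla3 was at 6.40 ± 9.97 CPM in muscle, 6.08 ± 8.78 CPM in liver and 4.61 ± 1.33 CPM in hypothalamus, with no difference past the threshold between any of these tissues in the fits over all libraries. Without CTL muscle 2, Pnpla3 was called lower in muscle than in hypothalamus (log2 difference -1.69, adjusted p = 0.0378 from edgeR). Between tissues most genes differ: 58% of all genes tested were called between muscle and liver (6 of 9 of these genes), 61.8% between muscle and hypothalamus (8 of 10) and 65.6% between liver and hypothalamus (7 of 9).

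In muscle, the question was which droplet and lipase genes change in fibres that lack COX10. Pnpla2, the lipase that starts triacylglycerol breakdown, was higher in COX10 KO muscle, where the 6 libraries measured 383, 561, 309, 349, 514 and 938 CPM, against 172, 290, 326, 288, 251 and 190 CPM in CTL muscle. The groups overlapped only at COX10 KO muscle 3, which lay below the highest CTL library, and 5 of 6 COX10 KO libraries lay above every CTL library. The mean was 509 ± 232 CPM in COX10 KO and 253 ± 60.6 CPM in CTL muscle (SD, n = 6 each), a fitted fold of 1.99 (log2 fold change 0.99, SE 0.27, edgeR quasi-likelihood adjusted p = 0.0230 over 11636 genes, exact permutation p = 0.00433, two-sided). The other 9 genes did not pass, so that 1 of 10 was called higher and 0 lower, where 6.9% of all genes tested were called higher and 7.43% lower.

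**Figure D1:**
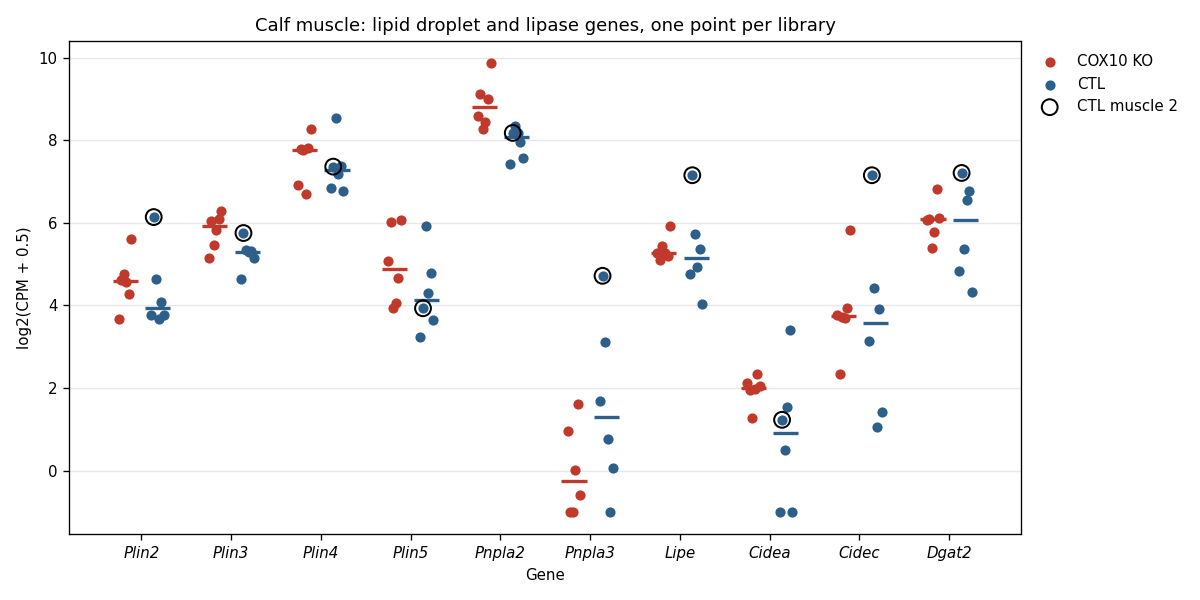
Level of the 10 genes in calf muscle as log2(CPM + 0.5), a point per library, COX10 KO left of CTL in each gene, with horizontal bars at the median of 6 libraries. For Pnpla2, 5 of 6 COX10 KO points lie above all CTL points. The circled CTL muscle 2 is the highest point of Plin2, Pnpla3, Lipe, Cidec and Dgat2.

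The call of Pnpla2 was close to the threshold. It was lost without COX10 KO muscle 2 (adjusted p = 0.0508 from edgeR), CTL muscle 5 (0.0528) or CTL muscle 6 (0.0644), and its log2 fold change stayed between 0.79 and 1.15 whichever library was left out. DESeq2 called it too (adjusted p = 0.00388). COX10 KO muscle 6, with the highest Pnpla2, also had the highest adipocyte marker sum (2212 CPM) and macrophage marker sum (516 CPM) among COX10 KO muscles. Leaving it out gave 0.79 (adjusted p = 0.0335 from edgeR). In CTL muscle 2, the library with the most adipocyte marker transcripts, Pnpla2 stood at 290 CPM, within the range of the other CTL muscles. Of 8 tested macrophage markers 4 were called higher in COX10 KO muscle, with sums over the 9 listed of 214 to 516 CPM in COX10 KO against 114 to 330 CPM in CTL muscle, while Adgre1 and Csf1r, which define the cell type, were not called. Those called were Cd68, a lysosomal protein (log2 fold change 3.79, SE 0.28), Gpnmb (1.21, SE 0.31), Lyz2 (1.04, SE 0.33) and C1qa (0.83, SE 0.26). Of all genes tested in muscle, 6.9% were called higher and 7.43% lower. Of 5 skeletal muscle markers 2 were called lower in COX10 KO muscle, and of 3 endothelial markers 0 were called in any tissue. Their part in the change of Pnpla2 was not tested. In bulk tissue, a change in the share of a cell type and a change of RNA per cell cannot be told apart.

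The perilipins of muscle showed small or variable differences. Plin3, which moves between cytosol and young droplets, ranged from 34.9 to 78.3 CPM (median 60.8) in COX10 KO muscle and from 24.3 to 53.5 CPM (median 39.1) in CTL muscle, and 4 of 6 COX10 KO libraries lay above every CTL library. Its log2 fold change was 0.60 (SE 0.22, adjusted p = 0.0778 from edgeR, exact permutation p = 0.0325, two-sided), so it missed the threshold by edgeR, and it was called by DESeq2 (adjusted p = 0.0464) and by edgeR without CTL muscle 2 (0.0200) or COX10 KO muscle 1 (0.0376). Plin5 ranged from 14.9 to 66.7 CPM (median 29.2) in COX10 KO and from 8.98 to 60.1 CPM (median 17.1) in CTL muscle, a log2 fold change of 0.64 (SE 0.47, adjusted p = 0.380 from edgeR). The groups overlapped over most of their range. Leaving out COX10 KO muscle 6 gave 0.28 for Plin5 and leaving out CTL muscle 3 gave 1.25, neither called, whereas the fit with no expression filter called it (0.70, adjusted p = 0.0442 from edgeR). Plin4 ranged from 104 to 307 CPM (median 219) in COX10 KO and from 109 to 372 CPM (median 154) in CTL muscle (log2 fold change 0.18, SE 0.32).

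Plin2 ranged from 12.2 to 48.2 CPM (median 23.7) in COX10 KO muscle and from 12.2 to 70.1 CPM (median 14.7) in CTL muscle. The highest value of the tissue was that of CTL muscle 2. Over all libraries the log2 fold change was 0.30 (SE 0.43, adjusted p = 0.696 from edgeR), and without CTL muscle 2 it was 0.76, not called.

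Cidec and Lipe, which are also strong in fat cells, had a single far value in CTL muscle 2, and Dgat2 was highest there too. Cidec, which fuses droplets into larger ones, measured 4.53 to 56.3 CPM (median 12.9) in COX10 KO muscle and 1.56 to 142 CPM (median 11.4) in CTL muscle, where CTL muscle 2 held the 142 CPM and the other 5 libraries 1.56 to 20.8 CPM. Its log2 fold change was -0.07 (SE 1.03) over all libraries and 1.04 without CTL muscle 2, neither called. Lipe, the diacylglycerol lipase, measured 33.8 to 59.8 CPM (median 38.2) in COX10 KO and 15.8 to 142 CPM (median 35.3) in CTL muscle, with log2 fold changes of -0.09 (SE 0.38) and, without CTL muscle 2, 0.38. Dgat2, the last enzyme of triacylglycerol synthesis, measured 41.7 to 112 CPM (median 67.8) in COX10 KO and 19.6 to 148 CPM (median 66.9) in CTL muscle, with log2 fold changes of -0.05 (SE 0.40) and 0.42. No direction can be given for these 3 genes, since it turned with that library.

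CTL muscle 2 also held 520 CPM of Adipoq and 146 CPM of Plin1, the defining adipocyte markers, against 2.18 to 61.9 and 4.36 to 30.7 CPM in the other CTL muscles, and 1648 CPM of Alb, a hepatocyte transcript, against at most 232 CPM in COX10 KO muscle. All 10 adipocyte markers were detected in both genotypes, and none was called. Their median log2 fold change was -0.62, and it turned to 0.49 without CTL muscle 2, where Fabp4 was called higher in COX10 KO muscle (1.23, SE 0.39, adjusted p = 0.0461 from edgeR). The brown fat marker Ucp1 was at 0 counts in all 12 muscles. COX10 KO muscle 6 and CTL muscle 2, the libraries with the highest adipocyte marker sum of their genotype, were also the highest of their genotype for Cidec, Lipe, Plin2 and Plin3. COX10 KO muscle 6 was the highest COX10 KO library for Plin4, Plin5 and Pnpla2 as well, and CTL muscle 2 the highest CTL library for Pnpla3 and Dgat2. The part of fat tissue in these levels was not tested.

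**Figure D2:**
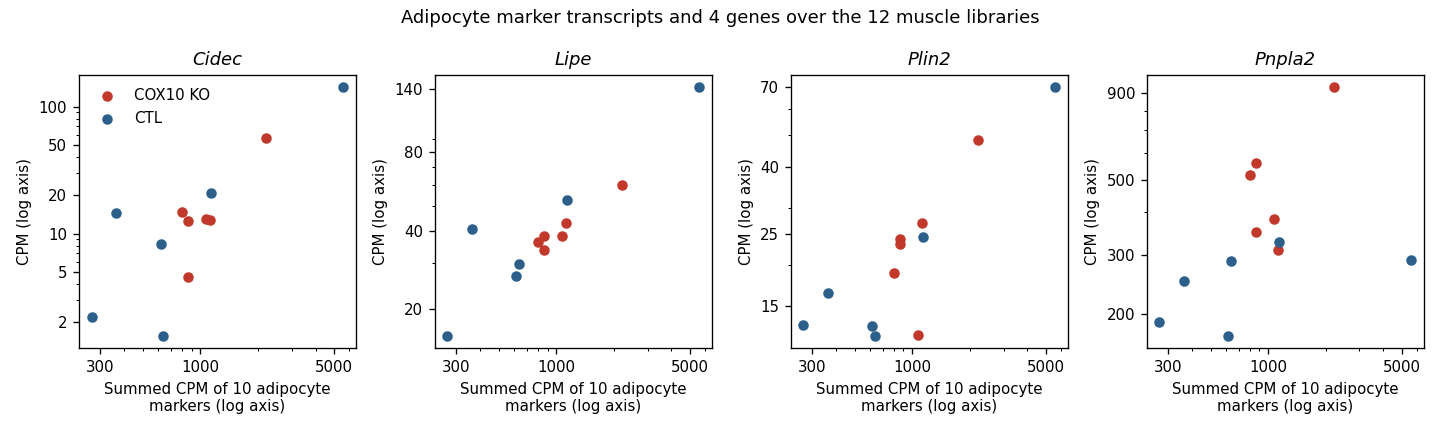
CPM of Cidec, Lipe, Plin2 and Pnpla2 (vertical log axes) against the summed CPM of 10 adipocyte markers (horizontal log axes) in 6 COX10 KO and 6 CTL muscle libraries, a point each. The CTL point at 5582 CPM of adipocyte markers is the highest for Cidec, Lipe and Plin2, whereas for Pnpla2 it lies at 290 CPM, below the COX10 KO points.

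Pnpla3, a relative of ATGL that in humans carries a variant linked to fatty liver, and Cidea, a droplet protein of brown fat, were scarce in muscle. Pnpla3 measured 0 to 2.56 CPM in COX10 KO muscle (24 counts in all 6 libraries) and 0 to 25.8 CPM in CTL muscle (55 counts), where CTL muscle 2 held the highest value on 14 counts. Its log2 fold change was -2.55 (SE 1.08, adjusted p = 0.126 from edgeR), and -1.81 without CTL muscle 2 (adjusted p = 0.223). With no expression filter it was called lower (-2.44, adjusted p = 0.00548 from edgeR). Another 2 transcripts of the annotation lie on the same strand as Pnpla3 and share its locus, so its counts are uncertain. Cidea measured 1.91 to 4.60 CPM in COX10 KO and 0 to 10.02 CPM in CTL muscle (log2 fold change 0.79, SE 0.72, adjusted p = 0.502 from edgeR). The median log2 fold change of the 10 genes in muscle was 0.24, against -0.03 over all genes tested, and without CTL muscle 2 it was 0.69, against 0.03.

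The genes whose levels followed Pnpla2 most closely over the 12 muscle libraries were Ccl9, a chemokine (Pearson r = 0.95), and Acsl1, an acyl-CoA synthetase that activates fatty acids (r = 0.94). Acsl1 averaged 316 ± 74.2 CPM in COX10 KO and 174 ± 39.7 CPM in CTL muscle, and its r with Pnpla2 was 0.96 within the 6 COX10 KO and 0.88 within the 6 CTL libraries. Ccl9 averaged 13.6 ± 7.21 CPM in COX10 KO and 4.61 ± 1.94 CPM in CTL muscle. These are descriptions over libraries that share genotype and depth, picked as the highest of 10997 genes.

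In liver, which was not targeted, the comparison asked whether the droplet genes change in mice with diseased muscle. No member passed edgeR's test (0 of 7 tested, of 9707 genes of which 0.0206% were called higher and 0.0721% lower). In edgeR 1 member had an unadjusted p under 0.05, as had 4.98% of all genes tested. DESeq2 also called 0, with 4 members at an unadjusted p under 0.05, for which no share over all genes is given here. Plin2, Plin4, Plin5 and Cidec were spread more widely in COX10 KO than in CTL liver (SD of 1979, 11.8, 114 and 29.5 CPM in COX10 KO livers, against 40.8, 2.17, 18.4 and 0.683 CPM in CTL livers), whereas Pnpla3 was spread more widely in CTL liver. COX10 KO liver 3, the library that stood apart, was the highest of all 12 for 7 of the 10 genes. Plin2 measured 162, 615, 5210, 260, 123 and 977 CPM in COX10 KO livers, against 360, 262, 300.5, 306, 371 and 306 CPM in CTL livers. Of the COX10 KO livers, 3 lay above every CTL liver and 3 below. COX10 KO liver 4 (259.7 CPM) lay just under the lowest CTL liver (262.3 CPM). The exact permutation test gave p = 0.262 (two-sided). The log2 fold change was 1.58 (SE 0.77, adjusted p = 0.997 from edgeR), and 0.41 without COX10 KO liver 3.

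**Figure D3:**
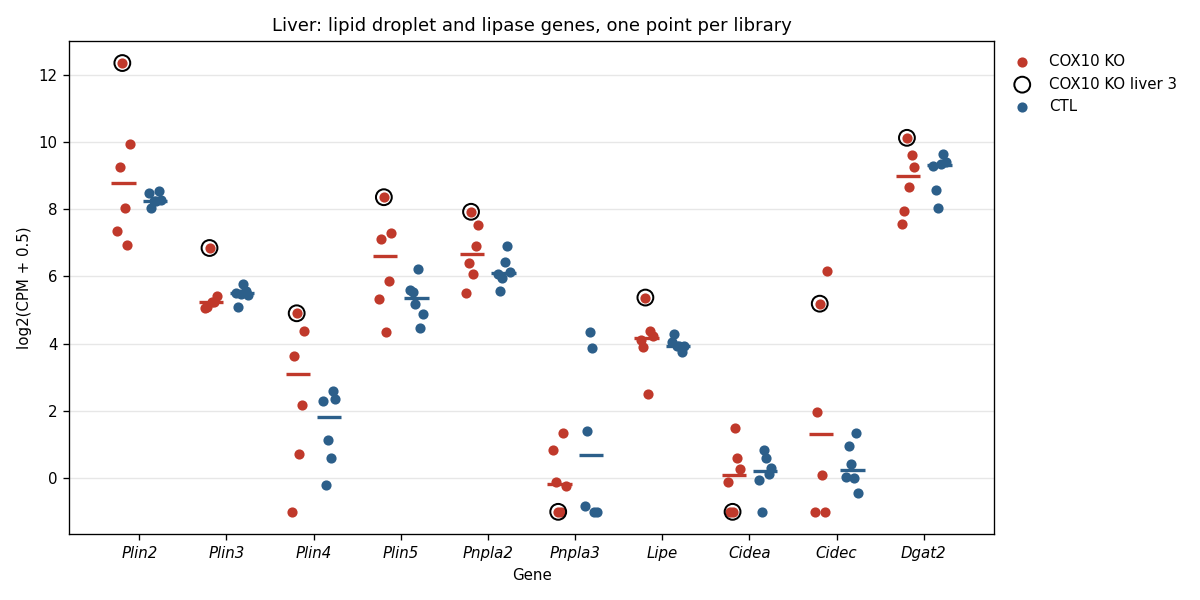
Level of the 10 genes in liver as log2(CPM + 0.5), a point per library, COX10 KO left of CTL in each gene, with horizontal bars at the median of 6 libraries. The 6 Plin2 values of COX10 KO livers run from 123 to 5210 CPM around a narrow CTL group at 262 to 371 CPM, and the circled COX10 KO liver 3 is the highest point for 7 genes.

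Plin5 measured 39.7, 138, 327, 20.02, 57.2 and 155 CPM in COX10 KO livers, against 48.1, 45.9, 35.7, 73.9, 21.6 and 29.05 CPM in CTL livers. COX10 KO livers 2, 3 and 6 lay above every CTL liver, the same 3 libraries as for Plin2. The log2 fold change was 1.43 (SE 0.55, unadjusted p = 0.0197, adjusted p = 0.863 from edgeR), and 0.96 without COX10 KO liver 3. Plin4, low in liver, measured 0, 11.9, 29.5, 1.14, 4.05 and 20.3 CPM in COX10 KO livers and 0.362 to 5.55 CPM in CTL livers, again with livers 2, 3 and 6 on top (log2 fold change 1.70, SE 0.83, and 1.23 without COX10 KO liver 3). Neither passed the test.

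Cidec fell below the expression filter in liver and was therefore not part of the fit. It measured 0, 3.41, 36.0, 0.572, 0 and 71.5 CPM in COX10 KO livers (0, 8, 22, 1, 0 and 204 counts), against 0.244 to 2.05 CPM in CTL livers (1 to 8 counts). COX10 KO livers 3 and 6 stood far above the rest and liver 2 just above the CTL range, and the exact permutation test gave p = 0.216 (two-sided). In an edgeR fit with no expression filter, Cidec was called (log2 fold change 4.08, SE 0.66, adjusted p = 1.27e-05), also without COX10 KO liver 3 (3.30, adjusted p = 0.0302), but not without COX10 KO liver 6 (2.00, adjusted p = 0.374). COX10 KO liver 6 held 553 CPM of 5 skeletal muscle markers, against 0.852 to 109.8 CPM in the other COX10 KO livers and at most 29.8 CPM in CTL livers, while Adipoq was at most 0.701 CPM in any COX10 KO liver and 0 in CTL livers, and Plin1 was at 0 in all 12.

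The lipases and Dgat2 moved less in liver. Pnpla2 measured 45.2, 84.4, 242, 67.5, 120 and 184 CPM in COX10 KO livers and 47.0 to 119 CPM (median 68.2) in CTL livers, with a log2 fold change of 0.74 (SE 0.38, adjusted p = 0.997 from edgeR) and of 0.32 without COX10 KO liver 3. Lipe measured 5.15 to 40.9 CPM (median 17.4) in COX10 KO and 12.9 to 19.2 CPM (median 14.8) in CTL livers (log2 fold change 0.25, SE 0.33). Dgat2 measured 189 to 1115 CPM (median 505) in COX10 KO and 264 to 803 CPM (median 637) in CTL livers, with a log2 fold change of 0.02 (SE 0.41) that became -0.54 without COX10 KO liver 3. Plin3 measured 32.8 to 115 CPM (median 37.1) in COX10 KO and 33.6 to 54.0 CPM (median 44.6) in CTL livers, and its log2 fold change of 0.10 (SE 0.32) became -0.30. COX10 KO liver 3 also had the lowest hepatocyte marker sum (39468.1 CPM, against 96667 to 158678 CPM in the other COX10 KO livers and 60157 to 125407 CPM in CTL livers). The 9 macrophage markers summed to 138 to 455 CPM in COX10 KO and 229 to 965 CPM in CTL livers, with 0 of 7 tested called by edgeR. Their part in these levels was not tested.

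Pnpla3 and Cidea were also below the filter in liver. Pnpla3 measured 0 to 2.03 CPM in COX10 KO livers (9 counts in all) and 0 to 19.98 CPM in CTL livers (82 counts, of which CTL livers 3 and 4 held 47 and 28), with an exact permutation p of 0.273 (two-sided). Cidea measured 0 to 2.29 CPM in COX10 KO and 0 to 1.28 CPM in CTL livers. The median log2 fold change of the 7 tested genes was 0.74, against -0.02 over all genes tested in liver, and 0.32 without COX10 KO liver 3.

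In hypothalamus, 0 of 8 tested genes passed edgeR's test, as for all 13504 genes tested (0% called higher and 0% lower), and DESeq2 called 0. In each tool 1 member had an unadjusted p under 0.05, as had 1.56% of all genes tested in edgeR. That member was Cidea, which measured 4.56, 9.99, 10.1 and 13.6 CPM in COX10 KO hypothalami (21, 36, 57 and 61 counts), against 3.81, 3.20, 5.01 and 4.62 CPM in CTL hypothalami (81, 15, 22 and 19 counts). Of the COX10 KO libraries 3 lay above every CTL library and COX10 KO 1 lay within the CTL range. The log2 fold change was 1.21 (SE 0.33, unadjusted p = 0.00305, the 4th smallest of the tissue, adjusted p = 1.00 from edgeR), and the exact permutation test gave p = 0.0857 where 0.0286 is the smallest that 4 against 4 can give.

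**Figure D4:**
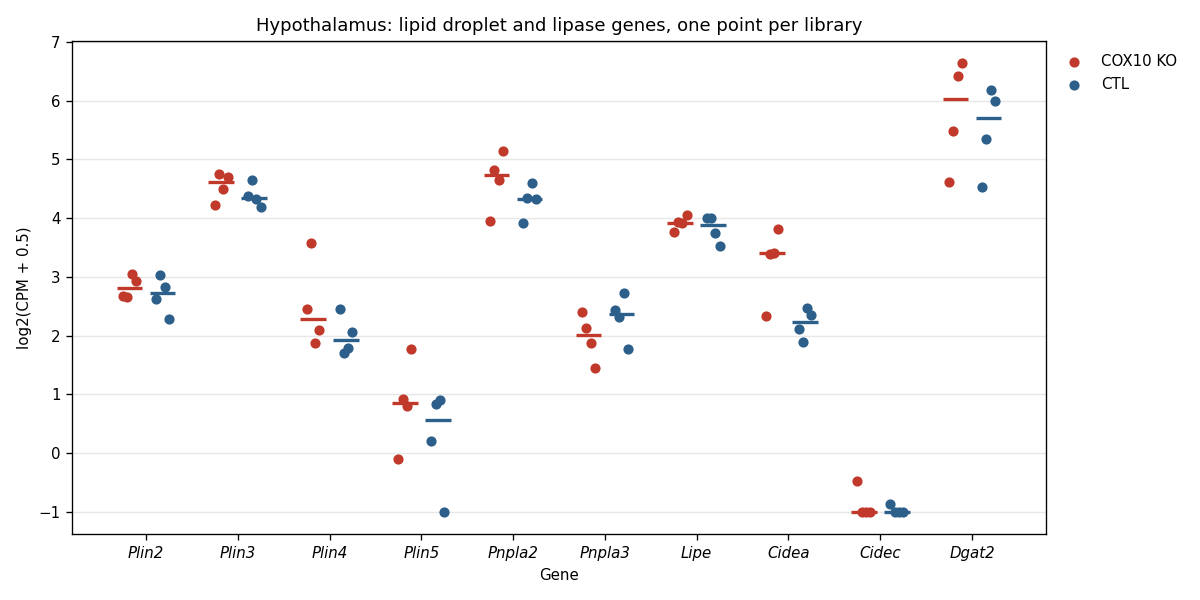
Level of the 10 genes in hypothalamus as log2(CPM + 0.5), a point per library, COX10 KO left of CTL in each gene, with horizontal bars at the median of 4 libraries. For Cidea, 3 of 4 COX10 KO points (9.99 to 13.6 CPM) lie above the CTL points (3.20 to 5.01 CPM), and for Pnpla2 also 3 of 4. The genotypes overlap in every gene.

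The other genes of the hypothalamus also overlapped between genotypes in their range. Dgat2 measured 24.1, 44.4, 85.3 and 99.2 CPM in COX10 KO and 22.7, 40.1, 71.7 and 63.3 CPM in CTL hypothalami, so that the libraries numbered 1 were lowest in both genotypes (log2 fold change 0.37, SE 0.43). Pnpla2 measured 14.97, 27.8, 24.6 and 34.8 CPM in COX10 KO and 14.6, 19.8, 23.7 and 19.5 CPM in CTL hypothalami (log2 fold change 0.41, SE 0.26). As for Cidea, 3 COX10 KO libraries lay above every CTL library. Plin4 measured 4.99, 11.4, 3.19 and 3.79 CPM in COX10 KO and 4.99, 2.77, 2.96 and 3.65 CPM in CTL hypothalami (log2 fold change 0.61, SE 0.41), and without COX10 KO hypothalamus 2 the log2 fold change of Plin4 was 0.098. The log2 fold changes of Plin2, Plin3 and Lipe were 0.14 (SE 0.26), 0.17 (SE 0.20) and 0.07 (SE 0.20), and that of Pnpla3 was -0.40 (SE 0.33). Plin5 (27 counts in COX10 KO and 26 in CTL hypothalami) and Cidec (1 count in each genotype) were too low for the test. Between libraries of the same number, COX10 KO was above CTL in 4 of 4 for Cidea, Dgat2, Pnpla2 and Plin4. For Pnpla3 it was below CTL in 4 of 4. The Plin4 values of the libraries numbered 1 were nearly equal (4.990 CPM in COX10 KO and 4.986 CPM in CTL). The share of all genes with such a pattern is not given here, so these counts have no background to be read against. With the replicate block none of these 5 genes was called (adjusted p of 0.432 for Cidea and up to 0.653 for the others, from edgeR). The median of the 8 tested genes was 0.27, against -0.01 over all genes tested.

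**Figure D5:**
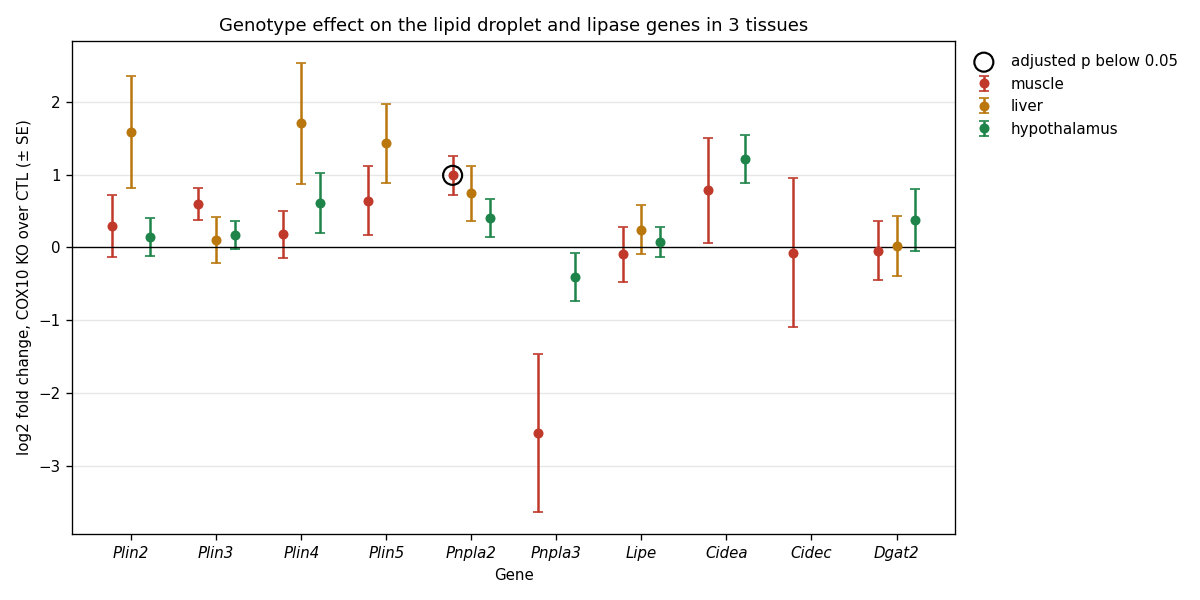
Log2 fold change of COX10 KO over CTL with its SE from edgeR for each gene that passed the expression filter in muscle, liver and hypothalamus. The only circled value, with an adjusted p below 0.05, is Pnpla2 in muscle at 0.99, and the widest errors are those of Pnpla3 and Cidec in muscle.

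Whether the genotype effect differed between tissues was tested as an interaction, which treats the tissues as independent samples. No member was called for muscle minus liver (0 of 8, where 2.18% of 11373 genes were called, with 1 member at an unadjusted p under 0.05) or for muscle minus hypothalamus (0 of 10, where 1.94% of 14618 genes were called, with 0 members at an unadjusted p under 0.05). Among the 8 members of the muscle and liver test Cidec had the smallest p, which ranked 697 of 11373 genes. Its genotype effect was lower in muscle than in liver by 4.82 on the log2 scale (SE 1.67, adjusted p = 0.129 from edgeR). With each library left out in turn, this difference ran from -5.49 to -2.19. For Pnpla2, the effect in muscle exceeded that in liver by 0.29 (SE 0.47) and that in hypothalamus by 0.60 (SE 0.41), so the call in muscle alone is not shown to be particular to muscle.

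The sex difference of the genotype effect was also tested, and no member was called in muscle or in liver, as for all genes (0% in muscle and 0% in liver). In muscle 4 of 10 members had an unadjusted p under 0.05 (Plin2, Pnpla3, Lipe and Cidec), as did 3.80% of all 12065 genes tested, all 4 with a higher effect in males. CTL muscle 2 is labelled female, and without it only Cidec of the 10 had an unadjusted p under 0.05, as had 2.95% of all genes (male minus female effect 2.84, SE 1.13, against 4.66, SE 1.37, with it). In liver 0 of 7 members had an unadjusted p under 0.05 with the labelled sex, under which CTL livers 1 and 4 enter with the sex opposite to their transcripts, and 0 of 7 with the sex read from transcripts. Pnpla2 in muscle had a log2 fold change of 0.66 in females alone and 1.34 in males alone, neither called with 3 libraries a group, and the difference of 0.63 (SE 0.52) was not called.

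The surrounding pathway was examined through 4 lists. Of 8 genes of lipolysis and its regulators, 0 were called in muscle (3 had an unadjusted p under 0.05, as had 29.7% of all genes tested in muscle). Ces1d, a carboxylesterase that hydrolyses triacylglycerol, had a log2 fold change of -1.44 (SE 0.47, adjusted p = 0.0523 from edgeR) in muscle. Abhd5, the activator of ATGL, and G0s2, its inhibitor, both chosen after their values were seen, had log2 fold changes of 0.50 (SE 0.21) and 1.00 (SE 0.41) in muscle with adjusted p = 0.115 and 0.116 from edgeR. Lpl, the lipase that releases fatty acids from lipoproteins, had its smallest p in hypothalamus (log2 fold change 0.60, SE 0.23, adjusted p = 1.00 from edgeR).

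Of all genes tested in muscle, 6.9% were called higher and 7.43% lower. Of 10 tested genes of glycerolipid synthesis, 1 was higher in COX10 KO muscle and 0 were lower. This was Agpat3, an acyltransferase of phospholipid and triacylglycerol synthesis, at 120 ± 17.5 CPM in COX10 KO and 62.0 ± 19.9 CPM in CTL muscle (log2 fold change 0.93, SE 0.20, adjusted p = 0.00730 from edgeR). All 6 COX10 KO libraries (102 to 149 CPM) lay above every CTL library (40.6 to 95.3 CPM). Of 9 tested genes of droplet formation, Fitm1, which helps droplets bud from the endoplasmic reticulum of muscle, was lower, at 79.7 ± 19.7 CPM in COX10 KO and 147 ± 60.0 CPM in CTL muscle (log2 fold change -0.86, SE 0.25, adjusted p = 0.0334 from edgeR), and 0 were higher. Fitm1 lost its call when any of COX10 KO muscles 1, 2, 3, 5 and 6 or CTL muscles 3, 5 and 6 was left out (adjusted p up to 0.104 from edgeR), and Agpat3 kept its call without any single library.

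Of 9 transcriptional regulators, 2 were lower and 0 higher in COX10 KO muscle, where 7.43% of all genes tested were called lower and 6.9% higher. Srebf1, a driver of fatty acid synthesis genes, averaged 4.58 ± 2.25 CPM in COX10 KO and 15.5 ± 10.6 CPM in CTL muscle (log2 fold change -1.66, SE 0.43, adjusted p = 0.0187 from edgeR). CTL muscle 2 held its highest value, and without that library the log2 fold change was -1.46 (adjusted p = 0.0334 from edgeR), while the call was lost without CTL muscle 1 (adjusted p = 0.0527). Nr3c1, the glucocorticoid receptor, averaged 26.05 ± 6.34 CPM in COX10 KO and 51.4 ± 13.0 CPM in CTL muscle (log2 fold change -1.01, SE 0.20, adjusted p = 0.00432 from edgeR), and every COX10 KO library lay below every CTL library. The median log2 fold changes of the 4 lists in muscle were -0.14 for lipolysis, 0.37 for glycerolipid synthesis, -0.40 for droplet formation and -0.60 for the regulators, against -0.03 over all genes. Without CTL muscle 2 they were 0.075, 0.39, -0.10 and 0.27, against 0.03, so that those of lipolysis and of the regulators turned in sign. In that fit G0s2 (1.38, SE 0.41, adjusted p = 0.0341 from edgeR) and Agpat2, another acyltransferase of glycerolipid synthesis (1.47, SE 0.45, adjusted p = 0.0378), were also called higher. In liver and hypothalamus 0 genes of the 4 lists were called by edgeR (in liver 7, 9, 10 and 9 tested, in hypothalamus 6, 9, 8 and 8).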

How the data were processed

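RNA of 32 calf muscle, liver and hypothalamus samples was sequenced from the 3′ end (Lexogen QuantSeq FWD) as single-end reads. Reads were cleaned with BBDuk, mapped with STAR 2.5.0a on GRCm38.p6 and counted with HTSeq 0.6.1 by the authors, and the deposited values are raw counts for 55401 identifiers per library. The strand setting of the counting is not given in the sources used here. Identifiers were matched without their version to GENCODE symbols (55141 matched), as the files carry a slightly different release. No 2 libraries held identical counts. Reads carry no molecular identifiers, so counting precision is overstated. The labels do not state that libraries of a group came from separate mice, and p-values measure the spread between these libraries.

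In R 4.3.3, each tissue was fitted with edgeR 4.0.16 (TMM, filterByExpr, quasi-likelihood F test of the genotype term, adding a sex term except in hypothalamus). Calls were made at adjusted p under 0.05 (Benjamini-Hochberg, over all genes tested). Standard errors come from the F statistic. Sex and tissue differences were interaction terms, and CTL tissues were compared with sex as a covariate. CPM of the 10 genes were compared with 30 two-sided exact permutation tests (Python 3.11.15, scipy 1.17.1), not adjusted over the 10 genes. The smallest possible p of such a test is 0.00216 in muscle and liver and 0.0286 in hypothalamus. Genes of the pathway and marker lists and the genes looked at later were tested in the same way, without adjustment. Alternatives were DESeq2 1.42.0, RLE factors, other filters (none, or 10 counts as a minimum everywhere), a replicate block, dropping the sex term, females or males alone, sex read from transcripts, thinned libraries, and each library left out. Fits without CTL muscle 2 for tissues and sexes, Cidec with no filter without single livers, DESeq2 with a block, the pathway and marker lists without single libraries and the liver sex difference with sex read from transcripts were added after seeing the data. In hypothalamus, the deviations of libraries of the same number correlated at r = 0.81, 0.20, 0.40 and 0.31 for numbers 1 to 4. This was the highest r of both libraries for numbers 1 and 2 only, and no label states a pairing. The scripts were tested on simulated data.

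The members and lists were chosen with earlier results of these data known. The text names all 10 genes, the genes of 4 pathway lists that were called in any tissue (else the 2 with the smallest p), and the 2 genes most correlated with a called member over the muscle libraries. Marker lists of cell types served as checks.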

Additional observations from a re-analysis of the deposited data

Results flagged for a closer look

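Each of the 60 groups of values (10 genes, 3 tissues, 2 genotypes) was checked for a highest or lowest library far from the others, and 13 had such a library. The rule was set for about 1 in 20 by chance. That rate does not allow for flags that share a library or rest on 1 count among zeros, so no excess over chance is shown. In COX10 KO muscle 6, Cidec stood at 56.3 CPM (711 counts) and Lipe at 59.8 CPM, above the other COX10 KO muscles. In CTL muscle 2, Plin2 stood at 70.1 CPM (38 counts), Pnpla3 at 25.8 CPM (14 counts), Lipe at 142 CPM (77 counts) and Cidec at 142 CPM (77 counts), above the other CTL muscles. In CTL muscle 3, Plin4 stood at 372 CPM and Plin5 at 60.1 CPM. In CTL muscle 5, Cidea stood at 10.02 CPM (22 counts).

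In COX10 KO liver 3, Plin2 stood at 5210 CPM (3183 counts) and Plin3 at 115 CPM (70 counts), above the other COX10 KO livers. In hypothalamus, Cidec was detected with 1 count in COX10 KO hypothalamus 1 (0.217 CPM) and 1 count in CTL hypothalamus 1 (0.0470 CPM), and in no other library of the tissue.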

How the results depend on the processing

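The muscle and liver libraries that stood apart were also the shallowest of their tissue. With deeper muscle libraries thinned to the smallest COX10 KO total, 1 gene was called higher (Pnpla2, 0.96, adjusted p = 0.0248 from edgeR). In muscle, 1 gene was called higher, and the count was 2 with DESeq2, 3 with no expression filter (Pnpla2, Plin3 and Plin5, where Pnpla3 was also called lower, a count of 1), 0 with a replicate block, 0 in females alone and 0 in males alone, and 0 to 2 with each library left out in turn. In liver the count of genes called higher was 2 with no filter (Plin5, log2 fold change 1.38, adjusted p = 0.0406 from edgeR, and Cidec), and for muscle minus liver it was 1 (Cidec, -4.67). The shares over all genes under these other settings are not given here, so these counts have no background to be read against. With the replicate block in muscle, where same-numbered libraries correlated at -0.17 to 0.23 (-0.52 to 0.49 in liver) and so do not count as pairs, Pnpla2 lost its call (0.95 on the log2 scale, adjusted p = 0.0596 from edgeR, range over all its alternatives 0.000407 to 0.315). The block changed no other call.

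The direction turned for genes that were not called. In muscle, with the replicate block, it was 0.063 for Lipe, 0.20 for Dgat2 and 0.47 for Cidec. With no filter it was 0.013 for Dgat2 and 0.018 for Cidec. In males alone it was 0.67 for Lipe, 0.10 for Dgat2, 2.37 for Cidec and -0.044 for Cidea, and in females alone -0.58 for Plin2 and -0.24 for Plin4. In liver, Dgat2 was at -0.12 with at least 10 counts in every library, -0.25 in males alone, -0.054 with no filter, -0.021 with no sex term and -0.24 with the replicate block, and Plin3 at -0.013, -0.31 and -0.021 with that minimum, in males alone and with the block. For muscle minus liver, Dgat2 was at 0.11 with no filter. With each library left out in turn, muscle values ran from -0.30 to 0.38 for Lipe, -0.72 to 1.04 for Cidec and -0.25 to 0.42 for Dgat2, liver values from -0.54 to 0.17 for Dgat2, -0.30 to 0.21 for Plin3 and -0.0041 to 0.44 for Lipe, hypothalamus values of Lipe from -0.016 to 0.13, and muscle minus liver from -0.26 to 0.35 for Dgat2 and -0.56 to 0.094 for Lipe. The sex difference of Dgat2 in muscle was 0.23, and -0.73 without CTL muscle 2. The cause of these turns was not tested.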

Other observations

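Beyond the 10 genes, several targets of PPAR-alpha, the fatty acid sensor of liver and oxidative muscle, were looked at after the values had been seen. In liver, Cyp4a14, a fatty acid omega-hydroxylase, ranged from 1474 to 15243 CPM (median 3738) in COX10 KO and from 98.1 to 1639 CPM (median 766) in CTL livers, and Cyp4a10 from 1025 to 10130.0 CPM (median 2707) in COX10 KO and from 273 to 1427 CPM (median 808) in CTL livers. In each of these genes 5 of 6 COX10 KO livers lay above every CTL liver (exact permutation p = 0.00433 each, two-sided, of 30 such tests). Angptl4, a secreted inhibitor of lipoprotein lipase, ranged from 24.7 to 362 CPM in COX10 KO and from 27.9 to 159 CPM in CTL livers, with an exact permutation p of 0.177. Ppargc1a, a coactivator of oxidative genes, ranged from 14.7 to 29.9 CPM in COX10 KO and from 4.30 to 13.1 CPM in CTL livers without overlap, and its adjusted p over all genes was 0.189 from edgeR.

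In muscle, Acot2, a mitochondrial acyl-CoA thioesterase, ranged from 187 to 3150 CPM (median 1424) in COX10 KO and from 35.5 to 196 CPM (median 96.9) in CTL muscle, and Pdk4, the kinase that shuts off pyruvate dehydrogenase, from 63.5 to 689 CPM (median 376) in COX10 KO and from 22.7 to 118 CPM (median 49.3) in CTL muscle. The exact permutation p was 0.00433 for Acot2 and 0.00649 for Pdk4 (two-sided). In hypothalamus Acot2 averaged 22.3 ± 8.65 CPM in COX10 KO and 23.4 ± 12.8 CPM in CTL samples, and Pdk4 averaged 3.62 ± 0.604 CPM in COX10 KO and 3.94 ± 1.66 CPM in CTL samples.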
